A study of Bos taurus with 8 samples.

Results

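Peroxiredoxins, the thioredoxin couple and the intracellular superoxide dismutases were followed here across 8 one-colour bovine expression arrays. The 10 genes are PRDX1, PRDX2, PRDX3, PRDX4, PRDX5, PRDX6, TXN, TXNRD1, SOD1 and SOD2. They were taken by name: every non-control probe whose annotated gene, or the gene of whose transcript accession, was on that list. This gave 24 of the 51282 probes, and 10 of the 16910 gene symbols on the array. All 24 probes were well above background on all 8 arrays, so every gene was measured in every sample, and all 10 were among the 13196 genes tested.

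Superoxide dismutases convert superoxide to hydrogen peroxide, SOD1 in the cytosol and SOD2 in the mitochondrial matrix. Peroxiredoxins then reduce peroxide through a reactive cysteine. Thioredoxin, itself recharged by the selenoenzyme thioredoxin reductase with electrons from NADPH, reduces most peroxiredoxins again. In the placenta, where oxygen supply and steroid synthesis are high, these enzymes form part of the defence against oxidative damage.

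Arrays were hybridised with Cy3-labelled total RNA, 4 titled non-pregnant and described as before pregnancy, and 4 titled pregnant and described as after pregnancy. All 8 carry the labels fetal cotyledon (the part of the ruminant placentome that the fetus forms), female and Bos taurus. The shared collection text, however, speaks of gravid uteri of pregnant buffalo from a slaughterhouse, and no stage of gestation, age or animal is named. Whether the 4 samples of a group are separate animals is not stated, and p-values cover only the spread between these samples, which can be technical. A non-pregnant animal has no fetal cotyledon, and the trophoblast markers did not follow the titles. The summed linear signal of 10 trophoblast genes, relative to the array 75th percentile, was 760 to 1070 on the arrays titled non-pregnant and 1.65 to 8.14 on those titled pregnant, and 2 of the 10 were well above background on no array titled pregnant. Of 9 endometrial genes tested 7 were called higher on the arrays titled pregnant, 1 (MSX1) lower and 1 (UPK1B) in neither direction, with summed signals of 39.5 to 52.5 on the arrays titled non-pregnant and 134 to 253 on the rest. MSX1 and UPK1B were the brightest of the 9 on the arrays titled non-pregnant and weigh most in that sum. Of the 9 genes, 2 were well above background on no array titled non-pregnant. All directions given here therefore refer to "the arrays titled pregnant" and "the arrays titled non-pregnant", and not to a state of the animal.

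The 8 arrays sat on 1 slide and were scanned together. Each group filled 1 row of the slide, so position on the slide and group cannot be told apart. Correlations were taken over the tested probes, those well above background on 4 or more arrays. They were 0.957 to 0.987 within the arrays titled non-pregnant, 0.943 to 0.989 within those titled pregnant and 0.736 to 0.783 between the groups. Array 4 of the titled pregnant group stood somewhat apart, at 0.943 to 0.951 with the rest of its group, whose other members correlated at 0.977 or more. The share of probes well above background ran from 60.577% to 69.494% per array, and the number of arrays limits the precision.

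The probes that carry the main points are shown as designed, 5′ to 3′ on the transcript strand, with positions on the HGSC Btau_3.1 build. PRDX1 rests on 1 probe, whose position spans more bases than its length, as a probe across a splice junction does. For SOD2 and PRDX6 a coding-frame stretch is set beside part of a probe farther 3′, for SOD1 a probe across a junction is shown, and for PRDX3 the sequences of both probes are shown because they map to different chromosomes. Probes that may lie in a 3′ untranslated region are shown as 30 bases of their 60. The capitals mark the polyadenylation signal AATAAA. Exon and UTR annotation was not used here.
PRDX1, chr3:107472210-107472537, plus strand: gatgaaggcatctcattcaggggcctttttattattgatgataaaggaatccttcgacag
SOD2, upstream probe, chr9:99818858-99818917, minus strand: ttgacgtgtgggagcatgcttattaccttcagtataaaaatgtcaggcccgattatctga
SOD2, downstream probe, first 30 bases, chr9:99818260-99818319, minus strand: caccccgtggtctttaattattttctgatc
PRDX3, first 30 bases, chr26:39793704-39793763, minus strand: ggcaaagtgacttaactgatcatgcatgtt
PRDX3, last 30 bases, chr8:23090060-23090119, minus strand: gtatttggatttgcaacaatgtgagaaaag
SOD1, junction probe, chr1:2914467-2915353, minus strand: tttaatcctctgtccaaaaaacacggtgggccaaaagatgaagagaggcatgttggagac
PRDX6, upstream probe, chr16:51951854-51951913, plus strand: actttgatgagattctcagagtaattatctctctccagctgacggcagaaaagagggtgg
PRDX6, brightest probe, last 30 bases, chr16:51954255-51954314, plus strand: ttagggatcagcaAATAAAtcctttgtcaa
The hexamer was present in 4 of the 24 probes and in 8.35% of all non-control probes, searched on the probe strand only. GC content of the 24 probes ran from 35.0% to 55.0%.

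Across the 10 genes, 7 were lower on the arrays titled pregnant (PRDX1, PRDX2, PRDX3, PRDX5, TXN, TXNRD1 and SOD1), 2 were higher (PRDX4 and PRDX6) and SOD2 did not pass the test by its brightest probe. A gene was called at an adjusted p below 0.05 in limma with the Benjamini-Hochberg method applied to all 34627 tested probes, and is represented by its probe with the highest mean signal. Of all 13196 genes tested, 32.9% were called lower and 29.9% higher, so single calls were common in this comparison. Without scaling the calls over all genes were 5545 lower and 2569 higher, and with scaling to the array median 5396 and 2894, while the 10 genes gave 7 lower and 1 higher under both. The median difference of the 10 genes was −1.32 on the log2 scale, beside −0.03 for all genes. Of the 7 lower genes, 6 fell by at least 2-fold, and of the 2 higher genes 1 rose by at least 2-fold. The share of all genes at that cut was not counted, so these 2-fold counts have no background beside them. The groups did not overlap for 9 of the 10 genes, against 60.3% of all genes. At the level of probes, 22 of 24 were called (16 lower and 6 higher), against 59.4% of all tested probes.

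**Figure D1:**
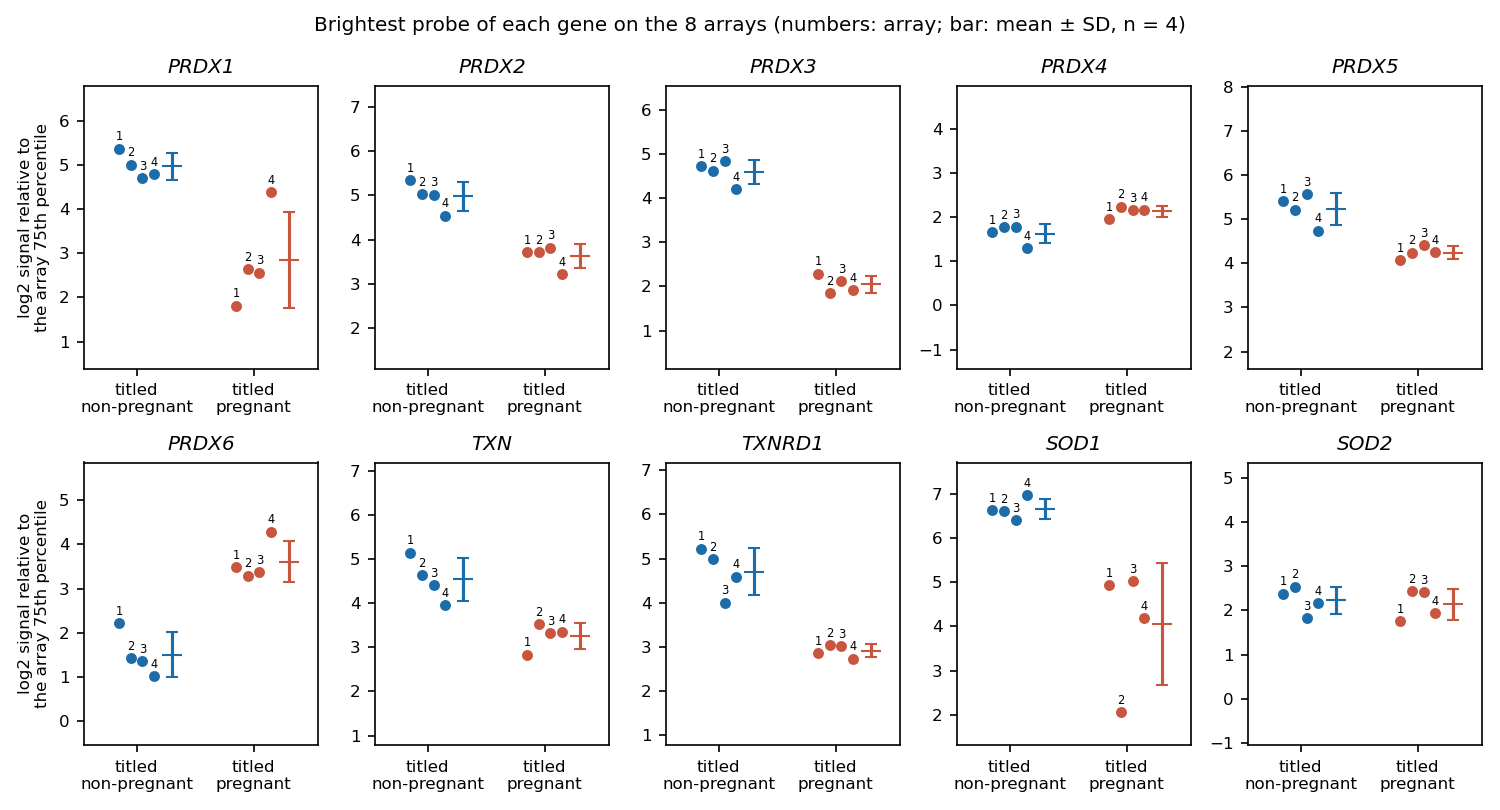
Log2 signal of the brightest probe of each gene, relative to the 75th percentile of its array, on the 4 arrays titled non-pregnant (blue) and the 4 titled pregnant (red); small numbers give the array and bars the mean ± SD. All panels span the same range of log2 units, and only for SOD2 do the groups overlap; array 4 is high for PRDX1 and PRDX6 and array 2 is low for SOD1 among those titled pregnant.

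Levels are given throughout as log2 signal relative to the 75th percentile of the array, and differences as titled pregnant minus titled non-pregnant on the same scale. SOD1, the copper-zinc enzyme of the cytosol, read 6.64, 6.62, 6.41 and 6.97 on the arrays titled non-pregnant and 4.93, 2.06, 5.03 and 4.19 on those titled pregnant. All 4 values titled pregnant lay below all 4 titled non-pregnant, and array 2 lay far below the others. The difference was −2.61 (SE 0.60, adjusted p = 0.0047), and −1.95 without that array (adjusted p = 0.000631). The low value was not seen on the other SOD1 probes: the one that ends 14 bases from it read 4.59 on array 2, beside 4.42, 4.55 and 3.71 on the other arrays of the group. The other 4 SOD1 probes gave differences of −1.52 to −2.05, all called (adjusted p = 0.000108 to 0.000633), and 2 of them share a run of 40 bases. The junction probe shown above read 5.13, 5.30, 4.79 and 5.95, and then 3.55, 3.44, 3.58 and 2.72, a difference of −1.97 (SE 0.30). SOD1 was thus lower by every probe, by 2.87-fold to 6.11-fold. A probe of the opposite strand, which shares 27 bases with the junction probe in reverse, also fell (difference −2.22, adjusted p = 0.00467).

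SOD2, the manganese enzyme of mitochondria, gave different answers by its 2 probes. The downstream probe, the brighter one, read 2.38, 2.54, 1.82 and 2.17 on the arrays titled non-pregnant and 1.76, 2.44, 2.42 and 1.93 on those titled pregnant. These values overlap, and the difference of −0.09 (SE 0.24) did not pass the test (adjusted p = 0.776). The upstream probe, 538 bases away, read 1.54, 1.62, 0.97 and 1.73 against 0.38, 0.69, 0.71 and 0.23. Here every array titled pregnant was below every array titled non-pregnant, with a difference of −0.96 (SE 0.23, adjusted p = 0.00547). On each array the downstream probe exceeded the upstream one, by 0.76 ± 0.22 (SD, n = 4) on the arrays titled non-pregnant and 1.64 ± 0.17 on those titled pregnant. That gap widened by 0.88, the exact two-sided permutation p was 0.0286, the smallest that 4 against 4 arrays allow, and the value adjusted over the 14 such probe comparisons was 0.10. The comparison of probes of 1 gene was added after their values were seen.

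The 2-Cys peroxiredoxins of the cytosol are PRDX1 and PRDX2, the latter a major protein of red cells. PRDX1 read 5.37, 5.01, 4.70 and 4.79 on the arrays titled non-pregnant and 1.81, 2.64, 2.56 and 4.39 on those titled pregnant. The groups did not overlap, but the 4.39 of array 4 titled pregnant lay close under the lowest value of the other group. The difference was −2.12 (SE 0.49, adjusted p = 0.00511) and, without array 4, −2.63 (adjusted p = 8.22e-05). A simple-epithelium list of 12 genes, added after the values were seen, had a median level of 2.11 on array 4, of 0.65 to 1.29 on the other arrays titled pregnant and of 1.88 to 2.61 on those titled non-pregnant. Of these 12 genes 7 were called lower and 0 higher, and the part of epithelial RNA in the PRDX1 difference was not tested. The summed signals of the trophoblast, endometrial, erythroid, leukocyte, endothelial and smooth muscle markers were each lowest on array 4 among the arrays titled pregnant. In whole tissue, fewer cells of a type and less RNA per cell cannot be told apart.

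PRDX2 read 5.34, 5.03, 5.02 and 4.54, and then 3.72, 3.72, 3.82 and 3.22, a difference of −1.36 (SE 0.23, adjusted p = 0.000887). Its second probe, 77 bases away, gave −1.28 (SE 0.24, adjusted p = 0.00177). Both probes were lower on each array titled pregnant than on any titled non-pregnant. The summed signal of the erythroid markers moved the same way, from 341 to 610 down to 10 to 18.8. Of the 11 erythroid genes tested 8 were called lower and 2 higher, 4 of the 13 listed were well above background on no array titled pregnant, and the part of red cell RNA in the PRDX2 difference was not tested.

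PRDX3 is the 2-Cys peroxiredoxin of mitochondria. Its chromosome 26 probe read 4.72, 4.62, 4.83 and 4.21 on the arrays titled non-pregnant and 2.29, 1.85, 2.12 and 1.92 on those titled pregnant. With a spread of at most 0.27 (SD, n = 4) in either group, the difference of −2.55 (SE 0.20, adjusted p = 1.03e-05) had the smallest adjusted p of the 10 genes, with a 5.86-fold lower signal. The probe named PRDX3 on chromosome 8 read 2.11, 1.53, 1.68 and 1.51, and then 1.38, 1.40, 1.23 and 1.24. Its groups did not overlap either, but its difference of −0.39 (SE 0.19) did not pass the test (adjusted p = 0.105). It shares 35 bases with a probe designed to another predicted transcript, which differed by −0.40 (adjusted p = 0.0959), so this signal may not come from the PRDX3 gene alone. Within arrays the chromosome 26 probe exceeded the chromosome 8 probe by 2.89 ± 0.27 and 0.73 ± 0.22 (SD, n = 4), an exact permutation p of 0.0286 and 0.10 after adjustment over 14.

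**Figure D2:**
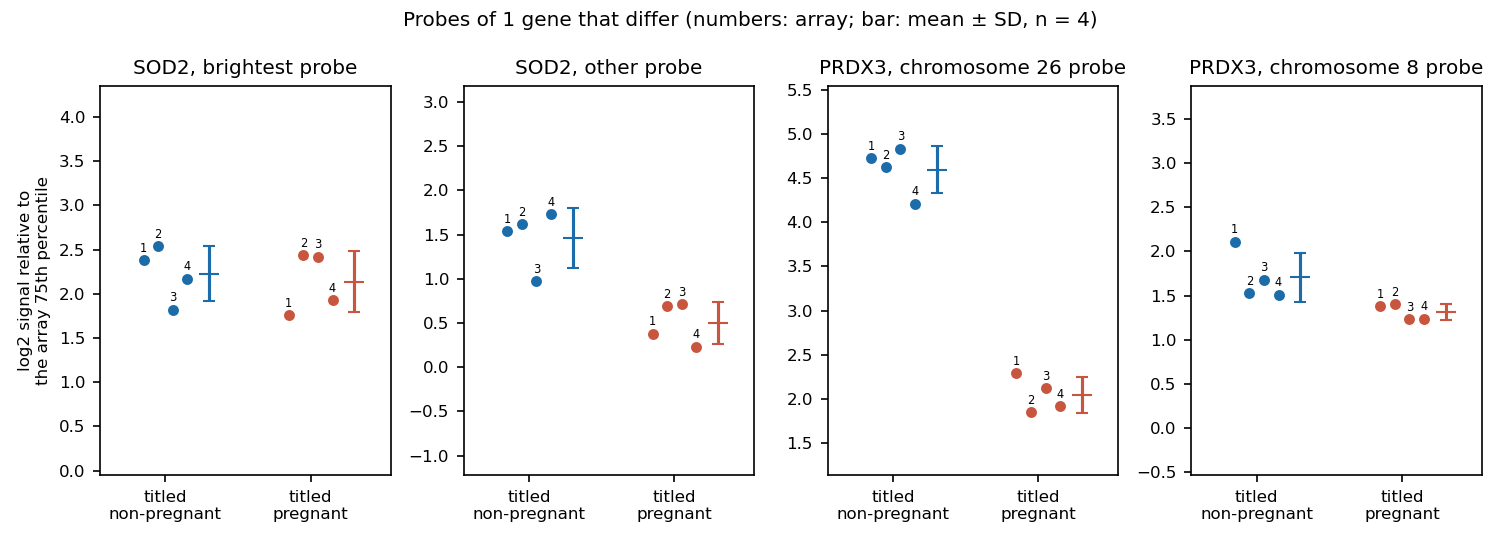
Log2 signal relative to the array 75th percentile for both probes of SOD2 and both probes named PRDX3, on the arrays titled non-pregnant (blue) and pregnant (red), with the mean ± SD. The groups overlap for the brightest SOD2 probe (difference −0.09) and separate for its other probe (−0.96); the chromosome 26 probe of PRDX3 separates by −2.55 and the chromosome 8 probe by −0.39.

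PRDX4, the peroxiredoxin of the endoplasmic reticulum, was among the 2 higher genes. Its single probe read 1.66, 1.77, 1.78 and 1.30 on the arrays titled non-pregnant and 1.95, 2.24, 2.16 and 2.17 on those titled pregnant. The lowest value titled pregnant was above the highest titled non-pregnant, but the rise was small, 0.50 (SE 0.18, adjusted p = 0.0397). It did not pass without array 1, 2 or 4 titled non-pregnant or array 2, 3 or 4 titled pregnant (adjusted p = 0.0581 to 0.104), nor with the replicate block (0.071) or without the filter on dim probes (0.0547). Without scaling the difference was 0.02 and with scaling to the array median 0.11 (adjusted p = 0.964 and 0.706). All genes together had median differences of −0.51 and −0.42 in those settings, and a scaling by 1 constant per array moves every gene alike.

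PRDX5, the atypical 2-Cys peroxiredoxin found in mitochondria, peroxisomes and cytosol, had, by its brightest probe, the difference nearest to 0 of the 4 lower peroxiredoxins. That probe read 5.41, 5.21, 5.56 and 4.74 on the arrays titled non-pregnant and 4.07, 4.24, 4.41 and 4.25 on those titled pregnant. The groups were separate, and the difference was −0.99 (SE 0.22, adjusted p = 0.00377). The other 2 probes, both crossing junctions, gave −1.1 and −1.22 (adjusted p = 0.00194 and 0.000509). With quantile normalization the brightest probe gave −0.39 and lost the call (adjusted p = 0.0802).

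PRDX6, the 1-Cys peroxiredoxin that also has phospholipase activity and does not depend on thioredoxin, rose. Its brightest probe read 2.21, 1.43, 1.36 and 1.02 on the arrays titled non-pregnant and 3.49, 3.29, 3.37 and 4.29 on those titled pregnant. The groups were more than 1 log2 unit apart at their nearest values, and the difference was 2.11 (SE 0.32, adjusted p = 0.000462), a 4.30-fold higher signal. All 5 probes were called higher, from 1.33 for the upstream probe to 2.81 (adjusted p = 0.000438 to 0.00227). The upstream probe lies 2341 bases from the brightest one and read −2.41, −2.36, −2.79 and −2.60 against −1.91, −1.0, −1.14 and −0.77. The 5 probes are not independent, since the brightest shares 54 bases with a second one. Array 4 had the highest value titled pregnant on all 5.

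**Figure D3:**
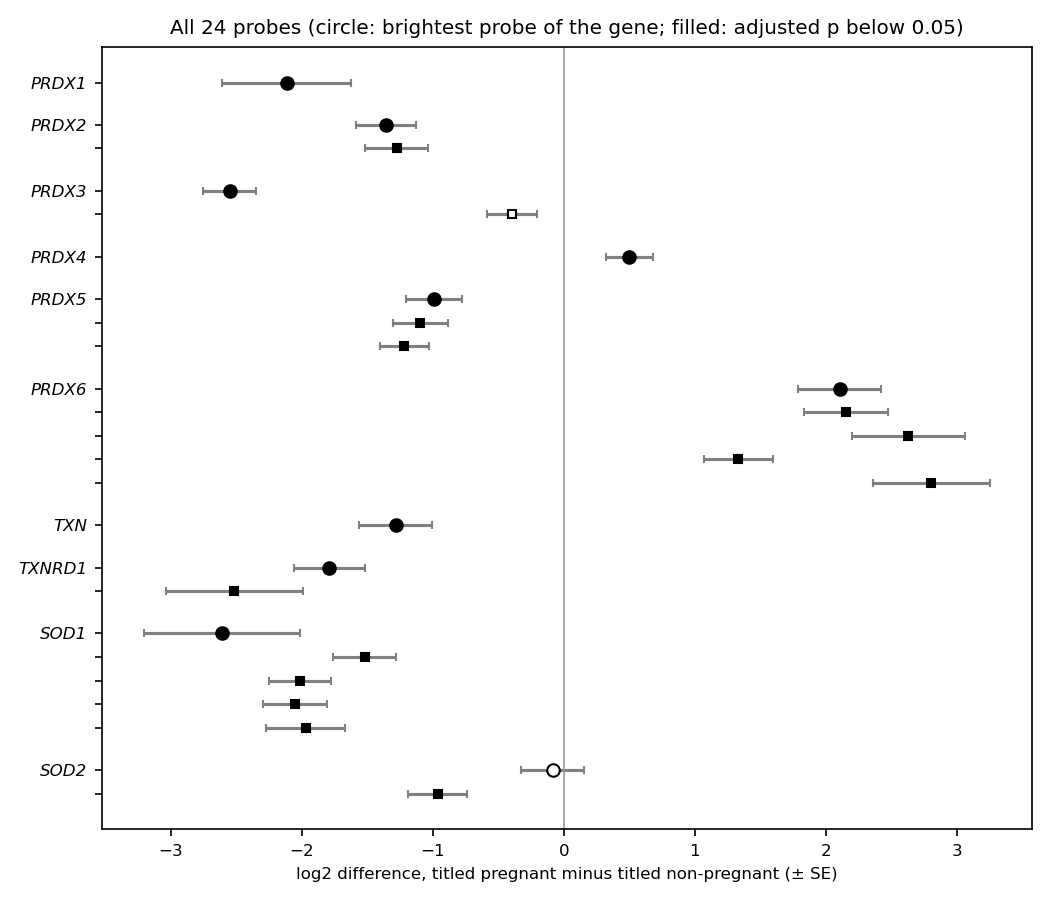
Log2 difference, titled pregnant minus titled non-pregnant, with its SE from limma for all 24 probes, grouped by gene; circles mark the brightest probe and filled symbols an adjusted p below 0.05. All 5 SOD1 probes lie left of 0 and all 5 PRDX6 probes right of it, and the 2 open symbols are the brightest SOD2 probe and the chromosome 8 probe of PRDX3.

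Thioredoxin and its reductase were both lower. TXN, the small dithiol protein that recharges the 2-Cys peroxiredoxins, read 5.14, 4.64, 4.40 and 3.96 on the arrays titled non-pregnant and 2.83, 3.52, 3.32 and 3.35 on those titled pregnant. The groups did not overlap, and the difference was −1.28 (SE 0.28, adjusted p = 0.00369). TXNRD1, the cytosolic selenoenzyme that reduces thioredoxin, read 5.22, 4.98, 4.0 and 4.59, and then 2.86, 3.04, 3.01 and 2.73. Every array titled pregnant was below every array titled non-pregnant, a difference of −1.79 (SE 0.27, adjusted p = 0.000463). The second TXNRD1 probe, at chr5:72976943-72980957 and across a junction, was dim and gave −2.52 (SE 0.53, adjusted p = 0.00293).

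Ratios of 2 genes on the same array do not change with a scaling by 1 constant per array, and 6 pairs were compared. Quantile normalization can change such ratios, and the pairs were not recomputed under it. PRDX6 relative to PRDX1 read −3.17, −3.57, −3.34 and −3.78 on the arrays titled non-pregnant and 1.69, 0.64, 0.80 and −0.10 on those titled pregnant. The groups were far apart, and the ratio shifted by 4.22 log2 units (exact two-sided permutation p = 0.0286, the smallest possible, and 0.0572 after adjustment over the 6 pairs). PRDX4 relative to PRDX1 shifted by 2.62, and SOD2 relative to SOD1 by 2.53, both with the same exact p and adjusted p. Most of these 2 shifts was the fall of the partner gene (PRDX1 −2.12, SOD1 −2.61), beside 0.50 for PRDX4 and −0.09 for SOD2. The SOD pair moved from −4.44 ± 0.32 to −1.91 ± 1.57 (SD, n = 4), the wide spread coming with the SOD1 value of array 2. Its shift was 1.76 without that array and 1.51 with the mean of each gene's probes. For TXNRD1 against TXN the shift was −0.51 (exact permutation p = 0.114, adjusted 0.171), for PRDX2 against PRDX1 it was 0.76 (0.314 and 0.377) and for PRDX3 against PRDX1 −0.43 (0.657). The groups overlapped in these last pairs, and 0 of the 6 passed after adjustment, and with 6 pairs at least 4 would have to reach the smallest p to do so.

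**Figure D4:**
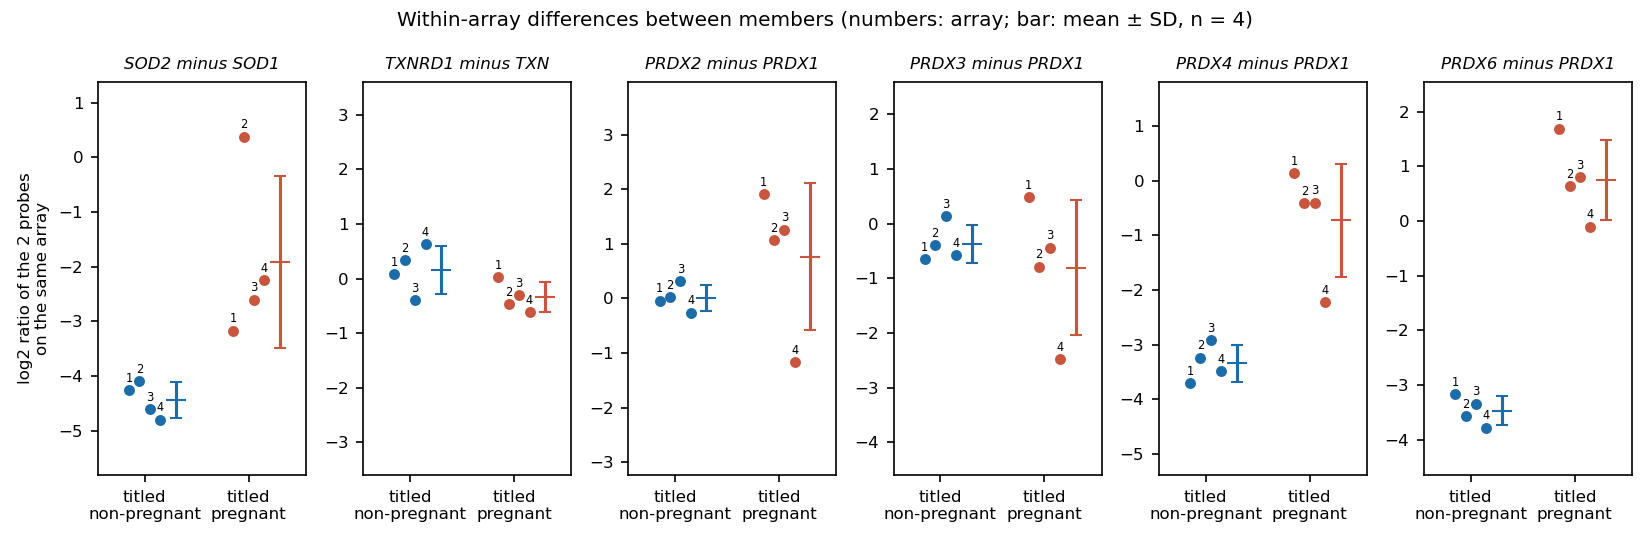
Log2 ratio of 2 genes on the same array for the 6 pairs compared, arrays titled non-pregnant in blue and titled pregnant in red, with the mean ± SD. PRDX6, PRDX4 and SOD2 separate from their partner gene between the groups (shifts of 4.22, 2.62 and 2.53), and the other 3 pairs overlap.

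The direct partners of these enzymes were split. Of 19 tested genes of the thioredoxin and superoxide partner list, 7 rose, 4 fell and 8 did not pass, with a median difference of 0.52. The split depended on scaling, with 6 higher and 6 lower without scaling or with the array median, 9 and 3 with the percentile over detected probes and 11 and 3 with quantile normalization. TXNIP, which binds and inhibits thioredoxin, rose by 3.30 (SE 0.24, adjusted p = 6.27e-06), and its other 3 tested probes rose too. The thioredoxin reductase TXNRD3 had a measured difference of 4.36 (adjusted p = 2.72e-06), imprecise in size because 3 of 4 arrays titled non-pregnant did not detect it well above background. The mitochondrial methionine sulfoxide reductase MSRB2 rose by 2.52, and the sestrin SESN3, seen on no array titled non-pregnant, by at least 6.6-fold (adjusted p = 5.11e-05). The thioredoxin-like TXNDC17 (−1.97), SESN2 (−1.59), TXNL1 (−1.41) and the selenoprotein MSRB1 (−0.58, adjusted p = 0.0427) fell, the last with 1 other tested probe that was not called. SOD3, the extracellular dismutase, did not pass the filter on dim probes and was not tested. The bound for SESN3 compares the brighter group with the dimmest signal called well above background on each array of the other.

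The NRF2 pathway, the transcriptional control of many of these genes, had 11 genes lower, 1 higher and 7 not passing of 19 tested, with a median of −0.96. GCLC, the catalytic subunit of the first step of glutathione synthesis, fell by 3.03 (adjusted p = 0.0021), with 1 array titled pregnant not well above background. The NADPH-producing PGD (−2.41) and the pentose phosphate enzyme TKT (−1.79) fell, as did OSGIN1 (−1.80). BACH1, a repressor of NRF2 targets, rose by 0.62 (adjusted p = 0.0259), although its groups overlapped. Of the genes that make selenoproteins such as TXNRD1, 4 of 7 fell (SEPSECS −1.05, SEPHS1 −1.02, SARS1 −0.98 and SEPHS2 −0.51), PSTK rose by 1.1 and 2 did not pass; with quantile normalization 2 rose and 3 fell, and without scaling or with the array median 0 rose and 4 fell. The other tested probes of OSGIN1, SEPHS1 and SEPHS2, and 1 of the other 2 of SARS1, were not called. The NRF2 list had 2 higher and 8 lower with quantile normalization, and 0 higher and 12 lower without scaling or with the array median, where BACH1 was not called higher.

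Genes that make superoxide or peroxide went mostly up: 7 of 11 tested rose, 1 fell and 3 did not pass, with a median of 0.81. Without scaling or with the array median 5 rose and 3 fell. Xanthine dehydrogenase XDH rose by 5.01 (SE 0.41, adjusted p = 1.29e-05) and the monoamine oxidase MAOB by 4.90, while MAOA fell by 2.19. NCF4, a cytosolic subunit of the phagocyte NADPH oxidase, rose by 3.0. Of 12 leukocyte markers tested 8 were called higher and 2 lower, with summed signals of 102 to 153 on the arrays titled non-pregnant and 55.8 to 123 on those titled pregnant. The 2 lower ones, CSF1R and AIF1, were the brightest of the list on the arrays titled non-pregnant (means of 5.99 and 5.43). They therefore weigh most in that sum, which does not follow the 8 higher genes. The part of leukocyte RNA in the oxidase value was not tested.

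In the endoplasmic reticulum, where PRDX4 works beside the disulfide-forming oxidases, 9 of 10 tested genes of oxidative folding fell and 0 rose, with a median of −1.13. PDIA4 (−2.85), the oxidase ERO1A (−2.17), TXNDC12 (−1.87) and QSOX1 (−1.71) had the lowest values, so PRDX4 was higher on the same arrays on which these were lower. The list had 7 lower with quantile normalization or the percentile over detected probes, and 8 without the filter on dim probes. Without scaling or with the array median 9 were lower, while PRDX4 differed by only 0.016 and 0.114 and was not called. The 3 further tested probes of QSOX1 were not called. SOD2 is a known target of NF-kB, and of 13 tested genes of the NF-kB feedback and cytokine-response list 11 rose and 2 fell, with a median of 2.23. IRF1 rose by 4.63, the inhibitor NFKBIA by 2.91 and the chemokine CCL2 by 2.53 with overlapping groups. TNF had a measured difference of 4.48 (adjusted p = 0.00589), imprecise in size because 3 of 4 arrays titled non-pregnant did not detect it well above background. TNFAIP3 fell by at least 3.69-fold (adjusted p = 0.00148, seen on no array titled pregnant) and TNIP1 by 0.97, with 1 other tested TNIP1 probe not called. The count of 11 was 7 without scaling or with scaling to the median, and the SOD2 probes gave −0.09 and −0.96 as above. Endothelial markers had summed signals of 10.4 to 13.3 and 22.7 to 45.8 in the same order of groups, with 3 of 8 called higher and 1 lower. Smooth muscle markers had 19.9 to 30.1 and 45.1 to 97.2, with 5 of 7 higher, and their part was not tested.

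**Figure D5:**
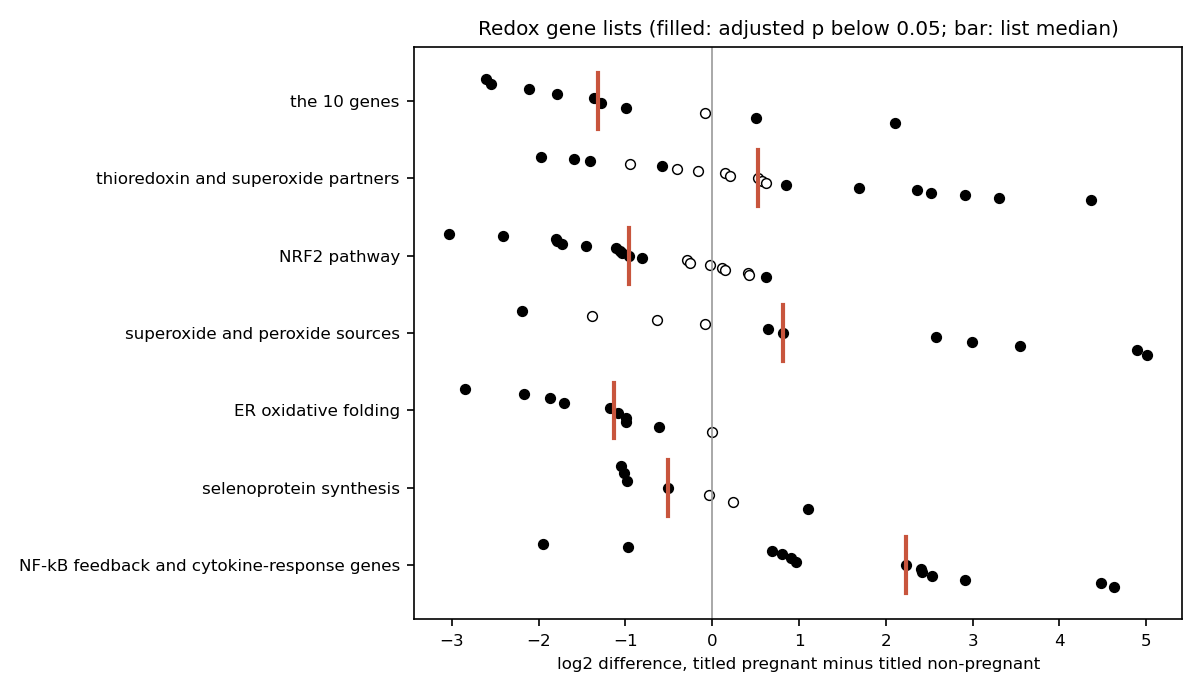
Log2 difference, titled pregnant minus titled non-pregnant, of each tested gene of the 10 enzymes and of 6 related lists; filled points passed an adjusted p below 0.05 and the red bar is the list median. Medians run from −1.32 for the 10 genes and −1.13 for oxidative folding to 0.81 for superoxide and peroxide sources and 2.23 for the NF-kB list.

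The genes whose array-by-array deviations lay nearest to those of PRDX6 were NUPR1, PRR15 and OGT, with mean absolute differences of 0.10, 0.13 and 0.15 log2 units over 8 arrays. For SOD1 the nearest were ACOT4, NECTIN4 and PTPN14, at 0.46, 0.48 and 0.49. The SOD1 neighbours were several times farther away, and the array 2 value of the brightest SOD1 probe is part of that profile.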

How the data were processed

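Total RNA of 8 samples was hybridised to Agilent bovine arrays, 1 colour. The scanner files hold intensities that, per the file headers, Agilent Feature Extraction 11.5.1.1 (protocol GE1_1105_Oct12) had background-corrected. The authors deposited a second table of log2 values, whose columns correlated at 0.99936 or more with the log2 intensities here. Its column medians were −4.207 to −3.563 and its 75th percentiles near 0, so it was scaled as here. From the intensities, 1319 control spots per array and 119 outlier spots in all were left out. Log2 was taken, spots of a probe were averaged, and each array's 75th percentile over the probes was then subtracted. Probes detected well above background on 4 or more of the 8 arrays, in any group, were tested with limma 3.58.1 in R 4.3.3 and Benjamini-Hochberg adjustment (threshold 0.05), after a check on simulated data. Fold changes of genes well above background on no array of 1 group are bounds.

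Gene names came from the files' symbols and accessions through RefSeq (ARS-UCD2.0, names only), and 1 SOD1 probe from a shared Ensembl transcript. All 10 genes were named with all probes. Of each list, up to 4 called genes in each direction were named, except 1 gene that is not reported here, and for the called member with the largest difference each way the 3 nearest profiles. The members and lists were chosen with earlier results of these data known. The alternatives were other scalings, backgrounds, filters, the deposited table, the mean of a gene's probes and leaving out arrays.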

Additional observations from a re-analysis of the deposited data

Results flagged for a closer look

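Of 48 sets of 4 values (24 probes in 2 groups), 4 had an array whose gap to the nearest other value passed Dixon's limit for groups of 4. Chance gives about 1 in 20. All 4 were on array 4 titled pregnant, and some are probes of 1 gene. For PRDX6 that array read 4.19 on the probe that overlaps the brightest one, beside 3.1 to 3.22 on the other arrays of its group, and 0.10 on another probe, beside −1.38 to −1.19. For SOD1 it read 3.92 on a downstream probe, beside 4.71 to 4.87, and 2.72 on the junction probe, beside 3.44 to 3.58. On these probes PRDX6 was higher and SOD1 lower there than on the rest of the group, away from the arrays titled non-pregnant. By the brightest SOD1 probe array 2, at 2.06, was lower than array 4, at 4.19. The PRDX1 value of 4.39 on array 4 lay toward the arrays titled non-pregnant.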

How the results depend on the processing

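The differences of the 10 genes were computed again under 19 alternatives, and 174 of 190 kept their direction and side of the threshold, 12 lost the call and 4 changed sign. PRDX1, PRDX2, PRDX3, PRDX6, TXN, TXNRD1 and SOD1 kept their calls under all 19. PRDX4 lost its call without scaling (0.016), with scaling to the median (0.114), without the filter on dim probes (0.501, adjusted p = 0.0547), with the replicate block (0.501, adjusted p = 0.071) and without arrays 3 titled non-pregnant and 4 titled pregnant together (0.536, adjusted p = 0.0622). Leaving out 1 array gave 0.392 to 0.561, with 6 of the 8 losing the call. In each of these cases 1 gene, PRDX6, was called higher in place of 2. PRDX5 gave −0.388 with quantile normalization. SOD2, never called, gave 0.079 with the percentile over detected probes, 0.134 with quantile normalization and −0.222 to 0.041 with 1 array left out (0.017 without array 2 titled non-pregnant, 0.041 without array 1 titled pregnant). SOD2 was lower by more without scaling (−0.571), with scaling to the median (−0.472) and with the mean of its probes (−0.525). The adjusted p in limma was 0.17, 0.174 and 0.062 in these settings. The within-array shift of PRDX3 against PRDX1 became 0.645 with the mean of probes, and −0.863 to 0.123 with 1 array left out (0.123 without array 4 titled pregnant). The median of all genes moved from −0.03 to −0.513 without scaling, −0.415 with scaling to the median and 0.136 with the percentile over detected probes, and scaling accounts for those shifts by construction. The mean of PRDX3 probes includes the chromosome 8 probe (−0.394) beside the chromosome 26 probe (−2.551), while PRDX1 has 1 probe. The sign change of PRDX3 against PRDX1 with the mean of probes follows from this by construction. The cause of the remaining changes was not tested. Of 120 recounts of the lists 18 differed by more than 1.5 times. The replicate block changed no other call of the 10 genes. Deviations of same-numbered samples from their group means correlated at 0.009, 0.075, 0.05 and 0.155, with 3 of 4 numbers nearest to their own. These values do not decide whether the numbers mark pairs. The labels give 1 factor, pregnancy status, and the block was not used as the main test. With normexp background another SOD1 probe was brightest (−2.043).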
